A study of Mus musculus with 12 samples.

Results

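The 10 metal-handling genes described here were measured across 12 mouse liver libraries. They are the metallothionein genes Mt1 and Mt2, the zinc transporter family genes Slc30a1, Slc30a10 and Slc39a14, the hepcidin genes Hamp and Hamp2, the transferrin receptor gene Tfrc, the transferrin gene Trf and the ferroportin gene Slc40a1. Members were taken by gene symbol from the deposited table, which holds 24033 symbols. All 10 were found, each as a single entry, and all 10 had a mean log2 value of at least 4, as did 12965 genes of the table, which were tested.

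The livers came from wild-type C57BL/6 female mice in 4 groups of 3 libraries. The groups were ovariectomized females given dexamethasone, ovariectomized females given the PBS vehicle, intact females given dexamethasone and intact females given the PBS vehicle. Dexamethasone, a synthetic glucocorticoid, was given at 1 mg/kg and livers were taken after 6 h. Ovariectomy is the removal of the ovaries, which make most circulating oestrogen. The labels give no age, no interval since surgery and no sham operation. Nor do they tie each replicate to its own mouse, so p-values cover only the spread among these libraries, which may be technical.

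Metallothioneins are small cysteine-rich proteins that bind zinc and copper, and their genes in mouse liver respond to zinc through the transcription factor MTF1, to inflammation and to glucocorticoids. Hepcidin is the liver hormone that lowers plasma iron by binding ferroportin, the iron exporter of macrophages, gut and liver cells. Its gene is switched on by BMP-SMAD signalling, which senses iron, and by IL-6 through STAT3. Transferrin, made by hepatocytes, carries iron in plasma and delivers it to cells through the transferrin receptor.

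Levels are log2 expression values as deposited, not adjusted for gene length, so they are compared between libraries and not between genes. They no longer hold read depth, so depth is unknown. Each difference below is a log2 fold change with its SE, fitted in limma over all 12965 genes. A gene is said to pass when its p, adjusted by the Benjamini-Hochberg method over that table, was under 0.05. The median log2 value of a library over the 12965 genes tested was 8.82 to 8.86. All 7 hepatocyte markers were present, with a summed level of 22.19 to 22.39 in ovariectomized dexamethasone, 22.06 to 22.21 in ovariectomized vehicle, 22.04 to 22.13 in intact dexamethasone and 22.15 to 22.3 in intact vehicle libraries. Of 8 erythroid markers, the globin entries Hba-a1, Hbb-b1 and Hbb-bt were listed at 0 in every library.

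Promoter sequences are shown for Mt1 and Mt2, which rose together with dexamethasone, and for the neighbouring copies Hamp, which passed, and Hamp2, which did not. They are the 250 bases before the RefSeq start (assembly GRCm38.p6, which is not the mm9 build of the deposited table), written 5′ to 3′ on the gene's strand. Of the 10 genes, 7 matched the promoter table (not Slc39a14, Trf and Slc40a1). Capitals in the metallothionein promoters mark the core of the metal response element, searched as TGCGCNC and TGCACNC on both strands, and the palindromic glucocorticoid receptor element, searched by its consensus. Mt1 lies at chr8:94178839-94179088 and Mt2 at chr8:94172368-94172617, both on the plus strand.
Mt1: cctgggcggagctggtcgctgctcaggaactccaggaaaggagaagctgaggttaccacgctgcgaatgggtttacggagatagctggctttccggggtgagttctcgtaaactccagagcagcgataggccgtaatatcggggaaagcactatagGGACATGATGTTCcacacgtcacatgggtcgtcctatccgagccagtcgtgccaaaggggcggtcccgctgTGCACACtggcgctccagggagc
Mt2: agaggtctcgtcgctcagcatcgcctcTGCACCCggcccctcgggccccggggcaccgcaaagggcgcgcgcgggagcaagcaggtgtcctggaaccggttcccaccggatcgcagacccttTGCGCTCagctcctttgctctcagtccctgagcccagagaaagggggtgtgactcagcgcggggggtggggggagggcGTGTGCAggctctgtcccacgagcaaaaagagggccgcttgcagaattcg

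The Mt1 window held 1 metal response core and 1 glucocorticoid receptor element, which lay 94 to 82 bases before the start. The Mt2 window held 3 metal response cores, 1 of them on the opposite strand, and no match to the receptor element. At least 1 metal response core was present in 21.5% of 32536 mouse promoters of the same length, at least 3 in 1.28%, and the receptor element in 0.39%. GENCODE M21 lists transcript starts of Mt1 at -7, 122 and 152 bases from its RefSeq start, where positive values lie after it. For Mt2 it lists starts at 46 and 242 bases, and none at the RefSeq start itself. The bases between a RefSeq start and these later starts lie outside the windows and were not searched. For the Mt2 start at 242, that is nearly all of a window of the same length. The counts for Mt1 and Mt2 thus describe only the bases before the RefSeq starts. Among the other matched genes, Slc30a1 had 1 metal response core, Slc30a10 had 3, a pair of which overlap, and Tfrc, which has 2 RefSeq starts, had 2 that overlap before the first start and 0 before the second. At least 1 core was thus found before at least 1 start of 5 of the 7 matched genes. A match is a string of letters and not a measured binding site.

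In the hepcidin promoters capitals mark the BMP response element core, searched as GGCGCC, and the STAT palindrome TTCNNNGAA, each of which reads the same on both strands. Hamp lies at chr7:30944030-30944279 and Hamp2 at chr7:30924182-30924431, both on the minus strand.
Hamp: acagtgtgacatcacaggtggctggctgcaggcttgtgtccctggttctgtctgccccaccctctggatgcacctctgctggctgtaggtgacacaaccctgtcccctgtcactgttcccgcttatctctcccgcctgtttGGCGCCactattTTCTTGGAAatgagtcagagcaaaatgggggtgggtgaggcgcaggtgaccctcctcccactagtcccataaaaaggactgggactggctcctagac
Hamp2: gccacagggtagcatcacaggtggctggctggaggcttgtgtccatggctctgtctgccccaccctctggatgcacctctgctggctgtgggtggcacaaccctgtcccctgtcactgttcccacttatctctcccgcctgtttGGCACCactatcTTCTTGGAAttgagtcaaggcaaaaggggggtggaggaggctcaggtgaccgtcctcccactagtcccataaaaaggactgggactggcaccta

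The windows of Hamp and Hamp2 were identical at 227 of 253 aligned positions (89.7%). Both held the STAT palindrome, which 7.04% of promoters hold. Hamp held the BMP response element core, present in 9.65% of promoters, 109 to 104 bases before its start. The aligned hexamer of Hamp2, in capitals above, differs by G4A, counted from 1 at the 5′ end of the Hamp hexamer. No difference in response between Hamp and Hamp2 was tested, and the part of this letter in their levels was not tested.

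Dexamethasone was followed by higher metallothionein levels in ovariectomized and in intact females, the largest changes among the 10 genes. Mt1 had log2 levels of 15.43, 14.8 and 15.05 in ovariectomized dexamethasone libraries, against 13.26, 13.56 and 13.34 in ovariectomized vehicle libraries. Every dexamethasone library was above every vehicle library. In intact females Mt1 stood at 15.24, 14.63 and 15.58 with dexamethasone, against 13.53, 13.9 and 13.37 with vehicle, again without overlap. Mt1 rose by 1.7 ± 0.22 in ovariectomized females, a 3.25-fold rise (adjusted p = 0.000183), and by 1.55 ± 0.22 in intact females, or 2.93-fold (adjusted p = 0.000212).

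Mt2, its neighbour on chromosome 8, was also higher in both dexamethasone groups than in both vehicle groups. Its log2 levels were 13.94, 13.09 and 13.24 in ovariectomized dexamethasone libraries, against 11.43, 11.8 and 11.54 in ovariectomized vehicle libraries. Intact females had 13.22, 12.52 and 14.02 with dexamethasone, against 11.92, 12.15 and 11.72 with vehicle. The intact dexamethasone libraries spanned the widest range, yet the lowest of them was above the highest intact vehicle library. Mt2 rose by 1.83 ± 0.31 (3.56-fold, adjusted p = 0.000878) in ovariectomized and by 1.32 ± 0.31 (2.5-fold, adjusted p = 0.00458) in intact females. Without intact dexamethasone replicate 3 the rise in intact females was 0.94, and without replicate 2 it was 1.69. Mt2 passed in each case.

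No difference between gonadal states passed for either metallothionein. The response of Mt1 differed by 0.15 ± 0.32 between ovariectomized and intact females (95% interval -0.54 to 0.84), and that of Mt2 by 0.51 ± 0.44 (-0.45 to 1.48). Without intact dexamethasone replicate 2 the Mt2 difference was 0.15, without ovariectomized dexamethasone replicate 1 it was 0.25, and without intact dexamethasone replicate 3 it was 0.9, and it passed in none of these fits. Under vehicle, ovariectomized minus intact was -0.21 ± 0.22 for Mt1 and -0.34 ± 0.31 for Mt2. The difference Mt1 minus Mt2 within a library averaged 1.67 ± 0.17 in ovariectomized dexamethasone, 1.8 ± 0.038 in ovariectomized vehicle, 1.9 ± 0.3 in intact dexamethasone and 1.67 ± 0.072 in intact vehicle libraries (log2, SD, n = 3 each), with group means spanning 1.67 to 1.9. Mt3 and Mt4, the brain and epithelial metallothioneins, were near the lowest value of the table at a mean of -2.21 and were not tested. Mtf1, the zinc-sensing activator of these genes, did not pass in ovariectomized (0.18 ± 0.078, adjusted p = 0.0834) or intact females (-0.02 ± 0.078, adjusted p = 0.818).

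**Figure D1:**
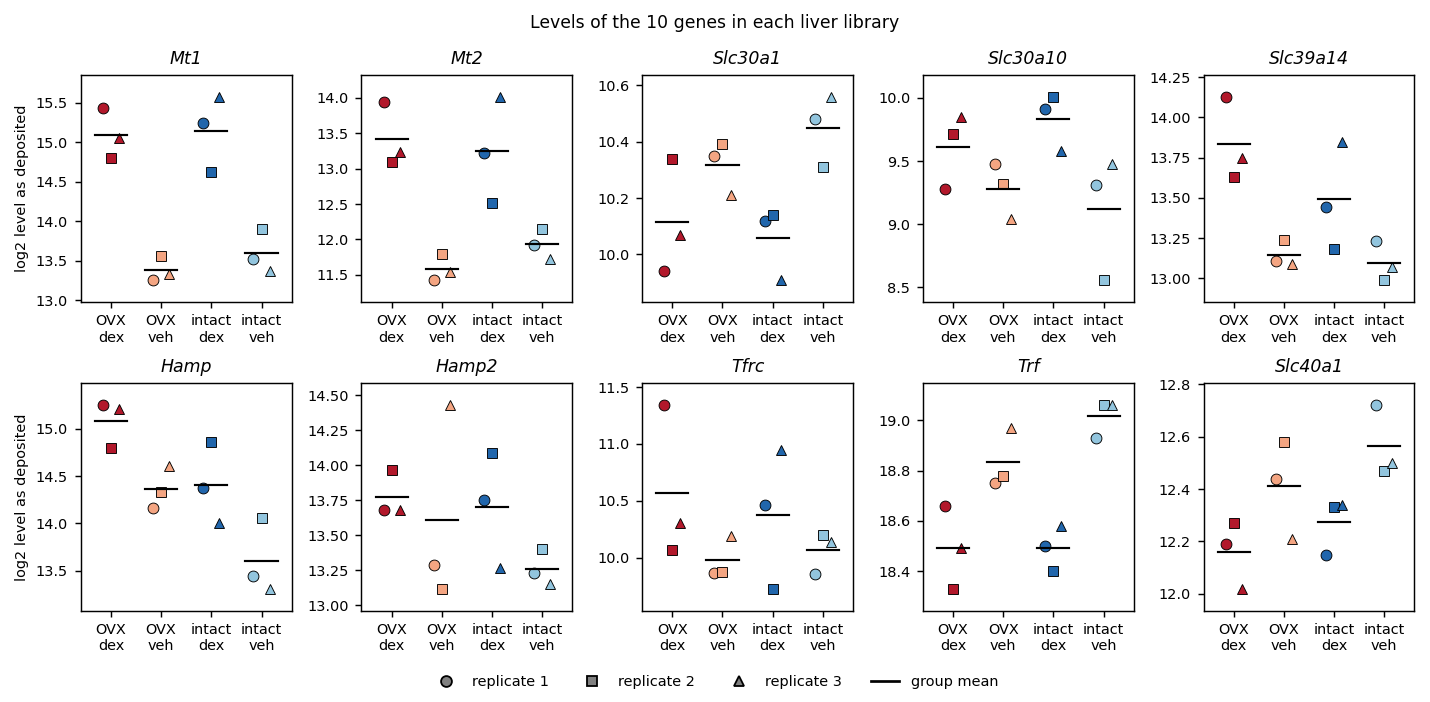
Log2 levels as deposited (vertical axis, own scale for each gene) of the 10 genes in each library, by group (OVX, ovariectomized; dex, dexamethasone; veh, vehicle), with symbols for replicate numbers and bars for group means. Mt1 and Mt2 show no overlap between dexamethasone and vehicle libraries in either gonadal state, and Tfrc in ovariectomized dexamethasone libraries spans 10.07 to 11.34.

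The zinc transporters moved in different directions. Slc39a14, also called ZIP14, carries zinc, non-transferrin-bound iron and manganese into hepatocytes. Its log2 levels were 14.13, 13.63 and 13.75 in ovariectomized dexamethasone libraries, against 13.11, 13.24 and 13.09 in ovariectomized vehicle libraries. These groups did not overlap, and Slc39a14 rose by 0.69 ± 0.16 (adjusted p = 0.00457). In intact females it stood at 13.44, 13.18 and 13.85 with dexamethasone, against 13.23, 12.99 and 13.07 with vehicle, where dexamethasone replicate 2 lay below the highest vehicle library. The intact difference, 0.39 ± 0.16, missed the threshold (adjusted p = 0.0564). The intact difference passed without intact dexamethasone replicate 2 (0.55, adjusted p = 0.0116), without ovariectomized dexamethasone replicate 1 (adjusted p = 0.0351), recentred to the same median (adjusted p = 0.0499) and under quantile normalization (adjusted p = 0.0136). Without intact dexamethasone replicate 3, the highest library of its group, it was 0.21 (adjusted p = 0.219).

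Slc30a1, the zinc exporter of the cell surface, was lower with dexamethasone. Its levels were 10.12, 10.14 and 9.91 in intact dexamethasone libraries, against 10.48, 10.31 and 10.56 in intact vehicle libraries, without overlap. Slc30a1 fell by 0.39 ± 0.1 (adjusted p = 0.00834). In ovariectomized females it had 9.94, 10.34 and 10.07 with dexamethasone, against 10.35, 10.39 and 10.21 with vehicle. That difference did not pass (-0.2 ± 0.1, adjusted p = 0.152), and it did without ovariectomized dexamethasone replicate 2 (-0.31, adjusted p = 0.0281). MTF1 is known to activate Slc30a1 together with the metallothioneins in mouse cells. Here Slc30a1 and Mt1 changed with dexamethasone in opposite directions in intact females. Zinc and MTF1 activity were not measured, and the part of MTF1 in either change was not tested.

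Slc30a10, which belongs to the zinc exporter family by sequence and is known for exporting manganese, was higher with dexamethasone in intact females. It had 9.91, 10.01 and 9.58 in intact dexamethasone libraries, against 9.31, 8.56 and 9.48 in intact vehicle libraries. Intact vehicle replicate 2 was the low library. Slc30a10 rose by 0.71 ± 0.22 (adjusted p = 0.0197), and by 0.44 without intact vehicle replicate 2 (adjusted p = 0.0692). The call was also lost without intact dexamethasone replicate 1 or 2 (adjusted p = 0.0596 and 0.0625) and without the filter on low values (adjusted p = 0.0811). In ovariectomized females the libraries overlapped at 9.28, 9.71 and 9.85 with dexamethasone, against 9.48, 9.32 and 9.04 with vehicle (0.33 ± 0.22, adjusted p = 0.254).

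Hamp, which encodes hepcidin, was higher with dexamethasone in both gonadal states and higher after ovariectomy under vehicle. Its log2 levels were 15.25, 14.8 and 15.21 in ovariectomized dexamethasone libraries, against 14.16, 14.33 and 14.61 in ovariectomized vehicle libraries. Intact females had 14.37, 14.86 and 14 with dexamethasone, against 13.44, 14.06 and 13.31 with vehicle. The groups were separate in ovariectomized females and overlapped in intact females, where replicate 2 was the highest library of each group. Hamp rose by 0.73 ± 0.23 (1.65-fold, adjusted p = 0.027) in ovariectomized and by 0.8 ± 0.23 (1.75-fold, adjusted p = 0.0136) in intact females. The response differed by -0.08 ± 0.33 between the gonadal states (95% interval -0.8 to 0.64).

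Single libraries decided these Hamp calls. In ovariectomized females the adjusted p was 0.0634 to 0.0972 without vehicle replicate 1 or 2 or dexamethasone replicate 1 or 3, with rises of 0.62 to 0.71, 0.0582 under quantile normalization and 0.0978 without the filter on low values. In intact females it was 0.0519 to 0.0591 without vehicle replicate 1 or 3 or dexamethasone replicate 2, with rises of 0.58 to 0.72, and 0.0609 without that filter. With both responses averaged in the same fit, a comparison added after the others had been seen, Hamp rose by 0.76 ± 0.16 (adjusted p = 0.00213) and passed under every alternative run.

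Ovariectomized vehicle livers, at the Hamp levels given above, did not overlap intact vehicle livers. Hamp was higher by 0.76 ± 0.23 (1.69-fold) after ovariectomy under vehicle (adjusted p = 0.0311). Of the 10 genes 1, Hamp, passed in that comparison, where 27.9% of all genes passed, 12.4% higher and 15.5% lower. Hamp was also the 1 gene of the 10 whose groups did not overlap there, against 45% of all genes. This comparison and the dexamethasone comparisons share vehicle libraries. The call was lost without intact vehicle replicate 1 or 3 or ovariectomized vehicle replicate 2 or 3 (adjusted p = 0.0663 to 0.116) and without the filter on low values (adjusted p = 0.112). Under dexamethasone the difference between ovariectomized and intact livers was 0.68 ± 0.23 and did not pass (adjusted p = 0.0744), and it passed without intact vehicle replicate 2 (adjusted p = 0.0472) or intact dexamethasone replicate 2 (0.9, adjusted p = 0.0326). Averaged over treatments, Hamp was higher by 0.72 ± 0.16 after ovariectomy (adjusted p = 0.0165), where 15.7% of all genes passed, and it did not pass without the filter (adjusted p = 0.0671). In order of group means, Hamp was highest in ovariectomized dexamethasone livers (15.09 ± 0.25), then intact dexamethasone (14.41 ± 0.43) and ovariectomized vehicle livers (14.36 ± 0.23), whose means differed by less than either SD, and lowest in intact vehicle livers (13.6 ± 0.4; SD, n = 3 each).

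Hamp2, the mouse copy of the hepcidin gene next to it, did not pass in any comparison. Its levels were 13.68, 13.97 and 13.68 in ovariectomized dexamethasone libraries, against 13.29, 13.12 and 14.43 in ovariectomized vehicle libraries. Vehicle replicate 3 was above all other libraries, and without it the ovariectomized difference was 0.57 (adjusted p = 0.0394), against 0.17 ± 0.29 with it (adjusted p = 0.674). Intact females had 13.75, 14.09 and 13.27 with dexamethasone, against 13.23, 13.4 and 13.15 with vehicle (0.44 ± 0.29, adjusted p = 0.226). After ovariectomy under vehicle Hamp2 differed by 0.35 ± 0.29 (adjusted p = 0.392). Hamp minus Hamp2 within a library averaged 1.31 ± 0.42 in ovariectomized dexamethasone, 0.75 ± 0.52 in ovariectomized vehicle, 0.7 ± 0.079 in intact dexamethasone and 0.34 ± 0.27 in intact vehicle libraries (log2, SD, n = 3 each). In each gonadal state these differences overlapped between dexamethasone and vehicle. The values of both copies are uncertain, since 16.6% of the 50-base words in Hamp transcripts occur in Hamp2 as well.

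Trf fell with dexamethasone in intact females. It had 18.5, 18.4 and 18.58 in intact dexamethasone libraries, against 18.93, 19.06 and 19.06 in intact vehicle libraries, with no overlap. The fall was 0.52 ± 0.14 (adjusted p = 0.00984), and -0.2 (adjusted p = 0.194) under quantile normalization. Ovariectomized females had 18.66, 18.33 and 18.49 with dexamethasone, against 18.75, 18.78 and 18.97 with vehicle. There the libraries were separate too, but the difference of -0.34 ± 0.14 did not pass (adjusted p = 0.074). It passed under quantile normalization, without the filter on low values, at a mean of at least 6 and without a variance trend (adjusted p = 0.0115 to 0.0425). Trf lay near the top of the deposited values, the highest of which was 22.03. Quantile normalization gives each rank the same value in every library, so the Trf differences under that setting follow ranks. Averaged over the gonadal states Trf fell by 0.43 ± 0.1 (adjusted p = 0.00344). Of the 7 hepatocyte markers, 4 passed as higher with dexamethasone in ovariectomized and 3 in intact females, and none passed as lower. Of all genes, 21.3% and 22.8% passed as higher there. The summed marker level in intact females was 22.04 to 22.13 with dexamethasone, against 22.15 to 22.3 with vehicle. In ovariectomized females it was 22.19 to 22.39, against 22.06 to 22.21. The part of hepatocyte content in the Trf values was not tested. Alb differed by -0.28 ± 0.3 in intact females (adjusted p = 0.453), where every dexamethasone library was below every vehicle library. In ovariectomized females Alb differed by 0.12 ± 0.3 (adjusted p = 0.773), and the groups overlapped. In GENCODE M21, 59.4% of the 50-base words in Trf transcripts also occur in other gene models, mostly Gm20425, an overlapping model, so the value of Trf is uncertain too.

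Tfrc showed no difference that passed and varied more among dexamethasone than among vehicle libraries. Its levels were 11.34, 10.07 and 10.31 in ovariectomized dexamethasone libraries, against 9.87, 9.88 and 10.19 in ovariectomized vehicle libraries. Intact females had 10.46, 9.73 and 10.95 with dexamethasone, against 9.86, 10.2 and 10.14 with vehicle. The differences were 0.59 ± 0.32 (adjusted p = 0.161) in ovariectomized and 0.32 ± 0.32 (adjusted p = 0.439) in intact females. Without ovariectomized dexamethasone replicate 1 the ovariectomized difference was 0.21 (adjusted p = 0.582). The intact difference was 0.031 without intact dexamethasone replicate 3 (adjusted p = 0.947), 0.21 without intact vehicle replicate 1 (adjusted p = 0.671) and 0.64 without intact dexamethasone replicate 2 (adjusted p = 0.104). Averaged over the gonadal states, Tfrc differed by 0.46 ± 0.23 (adjusted p = 0.111), and it passed without intact dexamethasone replicate 2 (0.62, adjusted p = 0.024). The SD was 0.68 and 0.62 in the dexamethasone groups of ovariectomized and intact females, against 0.18 in each vehicle group. Erythroid markers other than the 3 globin entries at 0 gave 2 tested genes, of which 0 passed in any limma comparison, and the summed level of the list was 10.37 to 11.26 in ovariectomized dexamethasone, 10.64 to 10.92 in ovariectomized vehicle, 10.43 to 10.76 in intact dexamethasone and 10.4 to 10.87 in intact vehicle libraries. Their part in the Tfrc values was not tested.

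Slc40a1 fell slightly with dexamethasone in intact females. Ferroportin, its product, is abundant in Kupffer cells, the macrophages of the liver. Levels were 12.15, 12.33 and 12.34 in intact dexamethasone libraries, against 12.72, 12.47 and 12.5 in intact vehicle libraries, without overlap. The fall of 0.29 ± 0.1 (adjusted p = 0.0341) was lost without intact vehicle replicate 1 or 3 or intact dexamethasone replicate 1 (adjusted p = 0.0507 to 0.134) under quantile normalization (adjusted p = 0.155) and without the filter on low values (adjusted p = 0.102). In ovariectomized females the levels were 12.19, 12.27 and 12.02 with dexamethasone, against 12.44, 12.58 and 12.21 with vehicle (-0.25 ± 0.1, adjusted p = 0.0684), and the difference passed without ovariectomized vehicle replicate 3 (adjusted p = 0.0206), recentred (adjusted p = 0.0452) and under quantile normalization (adjusted p = 0.033). Averaged over the gonadal states Slc40a1 fell by 0.27 ± 0.072 (adjusted p = 0.00761). Of 6 Kupffer cell markers tested, 3 fell with dexamethasone in ovariectomized and 2 in intact females, and none rose. Of all genes, 19.4% and 25.9% passed as lower there. After ovariectomy under vehicle 5 of the 6 markers were lower, as were 15.5% of all genes. Slc40a1 did not pass in that comparison (-0.15 ± 0.1, adjusted p = 0.284). The summed level of the Kupffer cell markers was 12.66 to 13 in ovariectomized dexamethasone and 12.9 to 13.13 in ovariectomized vehicle libraries. It was 13.13 to 13.28 in intact dexamethasone and 13.39 to 13.46 in intact vehicle libraries, and none of the markers was at 0. Their part in the Slc40a1 values was not tested, and in whole liver fewer cells of a type and less RNA per cell cannot be told apart.

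**Figure D2:**
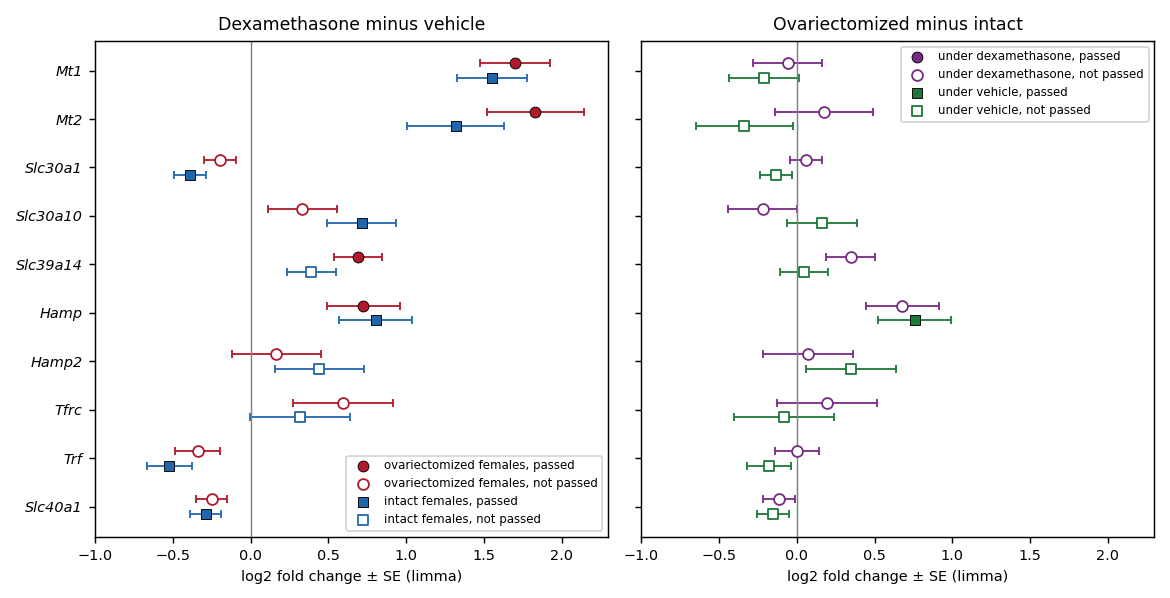
Log2 fold changes ± SE (limma) of the 10 genes for dexamethasone minus vehicle (left) and ovariectomized minus intact (right). Filled symbols passed and open symbols did not; the metallothioneins lie farthest to the right on the left side, and Hamp under vehicle is the filled symbol on the right side.

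Counted over the 10 genes, 4 rose and 0 fell with dexamethasone in ovariectomized females (Mt1, Mt2, Slc39a14 and Hamp), where 40.7% of all genes passed, 21.3% higher and 19.4% lower. In intact females 4 rose (Mt1, Mt2, Slc30a10 and Hamp) and 3 fell (Slc30a1, Trf and Slc40a1), where 48.8% of all genes passed, 22.8% higher and 25.9% lower. The share of 40% in ovariectomized females was near that of all genes, and the share in intact females was 70%. Dexamethasone and vehicle groups did not overlap for 5 of the 10 in ovariectomized and 6 in intact females, against 54.6% and 55.5% of all genes. Averaged over the gonadal states 5 rose and 3 fell, where 54.8% of all genes passed, 26.8% higher and 28% lower. The median log2 fold change of the 10 genes was 0.46 in ovariectomized and 0.42 in intact females, against 0 for all genes in each. In size of change, Mt1 ranked 64 and Mt2 ranked 51 of 12965 genes in ovariectomized females, and 58 and 116 in intact females. Under dexamethasone, 0 of the 10 passed between ovariectomized and intact livers (12.8% of all genes did), with 2 at an unadjusted p under 0.05 in limma. The groups overlapped there for all 10, while 34.1% of all genes did not overlap. For the difference between the dexamethasone responses 0 of the 10 passed (24.9% of all genes did) and 0 had an unadjusted p under 0.05, with values of the 10 from -0.38 to 0.51.

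Libraries within a group deviated together for several of these genes. In ovariectomized dexamethasone replicate 1, Mt1, Mt2, Slc39a14 and Tfrc stood 0.34, 0.52, 0.29 and 0.77 above their group means. In intact dexamethasone replicate 3 the same genes were 0.43, 0.77, 0.36 and 0.57 above, and in intact dexamethasone replicate 2 they were lower than the group mean, with deviations of -0.52, -0.73, -0.31 and -0.65. The 4 genes deviated to the same side in 5 of 6 dexamethasone libraries and in 6 of 12 libraries overall. They were named with these deviations known, so the count only describes them. After subtracting group means, Pearson's r over the 12 libraries was 0.96 for Mt1 with Mt2, 0.9 for Mt2 with Slc39a14, 0.87 for Mt2 with Tfrc and -0.75 for Mt1 with Slc30a1. Pairs reaching beyond the 4 genes had values of like size, among them Tfrc with Trf (0.88), Slc30a1 with Trf (-0.83) and Slc30a1 with Slc30a10 (0.76). Hamp did not follow this pattern (-0.06 with Mt1), and its r with Hamp2 was 0.56. These are descriptions over libraries that share processing and group means, with no test.

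**Figure D3:**
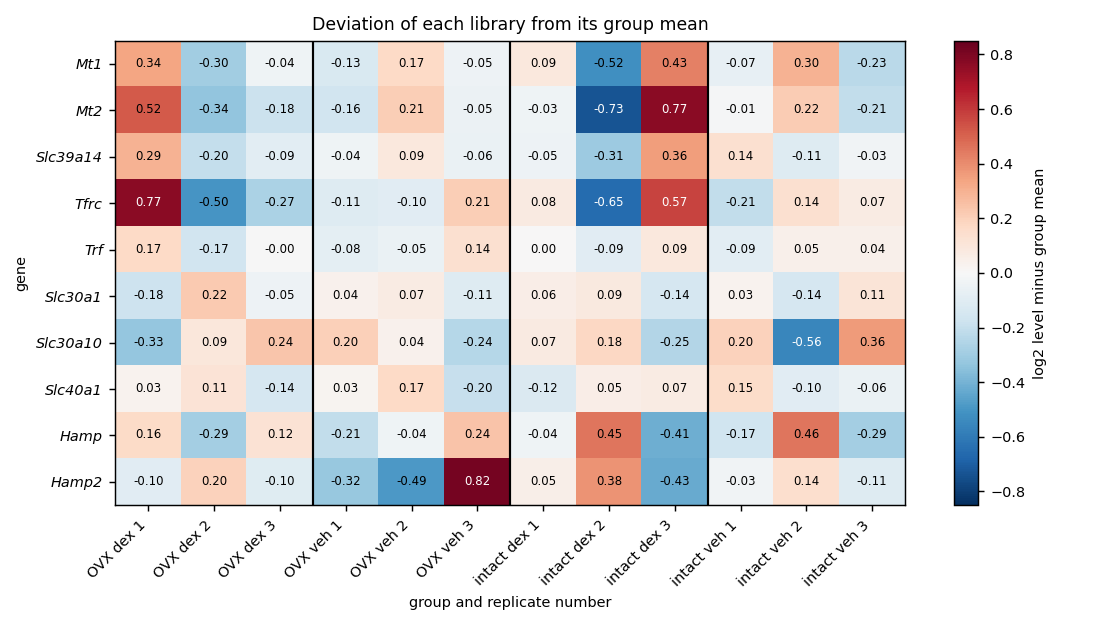
Deviation of each library from its group mean (log2, colour and printed value) for the 10 genes (rows) in 12 libraries (columns; OVX, ovariectomized; dex, dexamethasone; veh, vehicle). Mt1, Mt2, Slc39a14 and Tfrc are above their means together in ovariectomized dexamethasone replicate 1 and intact dexamethasone replicate 3, and below them together in intact dexamethasone replicate 2.

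The genes whose levels over the 12 libraries were most like those of Mt1 were Chka, a choline kinase gene (Pearson's r = 0.985), Ms4a8a (0.983), Mt2 (0.981), Fam107a (0.977) and Sult1e1, an oestrogen sulfotransferase gene (0.977). For Hamp they included Ecsit (0.971), the RNA polymerase subunit gene Polr1c (0.96), Fam192a (0.949) and Aup1 (0.948). The points of each pair share the libraries and the group differences.

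Wider lists of metal-handling genes, the 10 included where listed, gave counts in both directions. These counts stand beside the 40.7% of all genes that passed with dexamethasone in ovariectomized and the 48.8% that passed in intact females, and nothing particular to a list is read from them. Of 8 zinc efflux family genes tested, 3 rose and 0 fell with dexamethasone in ovariectomized females, and 1 rose and 3 fell in intact females. Slc30a5, which loads zinc into the secretory pathway, rose by 0.31 ± 0.072 and Slc30a9 by 0.24 ± 0.06 in ovariectomized females. Of 13 zinc uptake family genes, 2 rose and 2 fell in ovariectomized females, and 2 rose and 5 fell in intact females. Slc39a7, which releases zinc from the endoplasmic reticulum, rose by 0.29 ± 0.074 in ovariectomized females. In intact females Slc39a11 fell by 0.52 ± 0.066, Slc39a1 by 0.48 ± 0.054, Slc39a9 by 0.46 ± 0.054 and Slc39a8, a close relative of Slc39a14, by 0.38 ± 0.082. Slc39a8 also fell in ovariectomized females, by 0.34 ± 0.082.

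Genes that control hepcidin were mixed. Of 24 tested, 3 rose and 4 fell with dexamethasone in ovariectomized females, with a median of 0.01, and 4 rose and 10 fell in intact females, with a median of -0.16. In ovariectomized females Il6ra, the IL-6 receptor chain, had levels of 10.7, 10.49 and 10.4 with dexamethasone, against 8.97, 9.07 and 8.91 with vehicle, a rise of 1.54 ± 0.15 (adjusted p = 2.32e-05). Hfe2, the hemojuvelin gene that encodes a BMP co-receptor, rose by 0.64 ± 0.12 there. Socs3, the STAT3-induced feedback inhibitor, fell by 0.72 ± 0.11. Id1, a target of BMP-SMAD signalling, fell by 0.48 ± 0.15 (adjusted p = 0.0247), a call lost without ovariectomized vehicle replicate 1 or 2 or ovariectomized dexamethasone replicate 1 or 2 (adjusted p = 0.0593 to 0.0849). In intact females Tmprss6, the protease that cleaves hemojuvelin, fell by 0.44 ± 0.072, the BMP type I receptor gene Acvr1 by 0.42 ± 0.086 and the iron sensor gene Tfr2 by 0.4 ± 0.072.

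After ovariectomy under vehicle, where Hamp was higher, 4 of these 24 control genes were higher and 8 lower, where 12.4% of all genes were higher and 15.5% lower. Atoh8, a transcription factor gene induced by BMP-SMAD signalling, was higher by 0.83 ± 0.16 (adjusted p = 0.00372), with 9.55, 9.34 and 9.48 in ovariectomized vehicle libraries, against 8.43, 8.9 and 8.54 in intact vehicle libraries. Smad7, an inhibitor that the same pathway induces, was higher by 0.64 ± 0.09 (adjusted p = 0.000814) and Socs3 by 0.7 ± 0.11 (adjusted p = 0.00117), while Il6ra differed by -1.17 ± 0.15 (adjusted p = 0.000481). Atoh8, Smad7 and Socs3 were thus higher together with Hamp in that comparison. With dexamethasone in ovariectomized females, where Hamp rose, Socs3, Id1 and Smad7 (-0.43 ± 0.09, limma adjusted p = 0.00294) fell. There Atoh8 did not pass (-0.42 ± 0.16, adjusted p = 0.0551), and Il6ra and Hfe2 rose. In intact females, where Hamp also rose with dexamethasone, Smad7 rose by 0.24 ± 0.09 (adjusted p = 0.0431) and Atoh8 by 0.45 ± 0.16 (adjusted p = 0.0383). The comparison under vehicle shares vehicle libraries with each dexamethasone comparison.

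**Figure D4:**
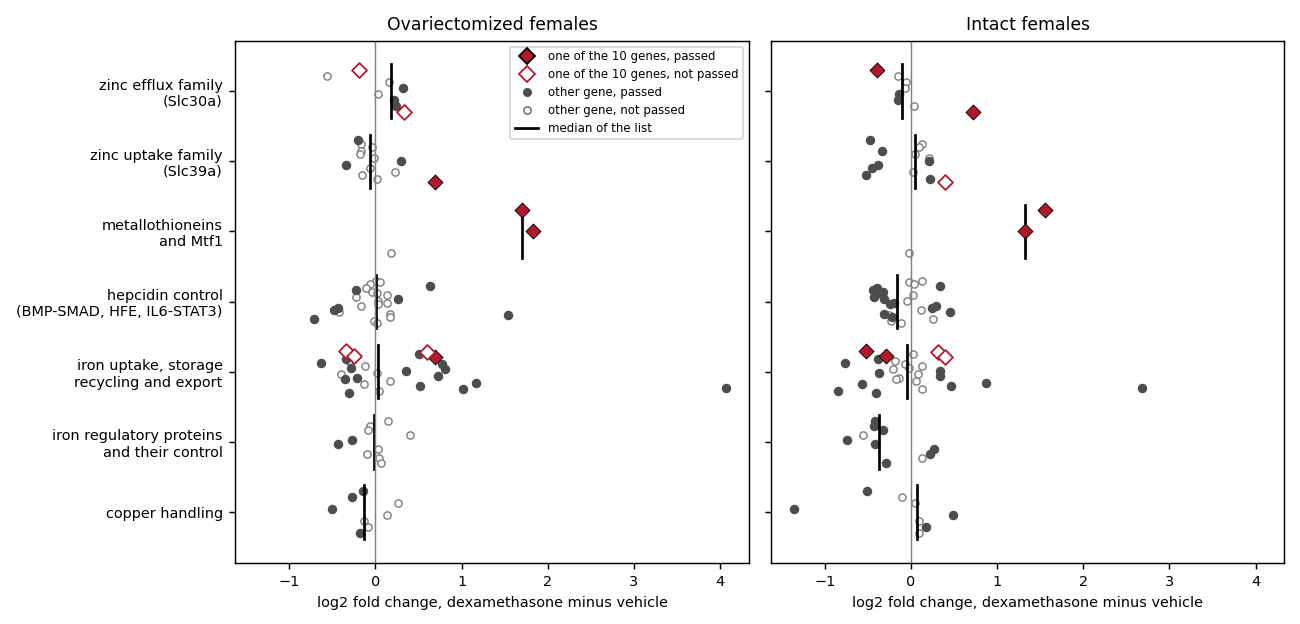
Log2 fold changes with dexamethasone of every tested gene in 7 lists of metal handling (rows), in ovariectomized (left) and intact females (right). Diamonds are members of the set of 10, circles are other genes, filled symbols passed, and black bars are list medians; Lcn2 is the point farthest right at 4.06 in ovariectomized and 2.68 in intact females.

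Of 26 iron uptake, storage, recycling and export genes, 10 rose and 6 fell with dexamethasone in ovariectomized females, and 5 rose and 8 fell in intact females. Lcn2, which encodes a siderophore-binding protein, rose by 4.06 ± 0.2 in ovariectomized and 2.68 ± 0.2 in intact females. Hp, the haptoglobin gene for haemoglobin capture, rose by 1.16 ± 0.15 in ovariectomized and 0.87 ± 0.15 in intact females. Ncoa4, the receptor for ferritin breakdown, rose by 0.81 ± 0.091 in ovariectomized females, and the haemoglobin scavenger receptor gene Cd163 by 1.02 ± 0.19. In intact females Lrp1, a receptor that takes up haem-haemopexin, fell by 0.85 ± 0.065 and Steap3, the ferrireductase of the transferrin cycle, by 0.77 ± 0.11. Of 10 iron regulatory genes, 0 rose and 2 fell in ovariectomized females and 2 rose and 6 fell in intact females. Ireb2 and Aco1, which encode the iron regulatory proteins that stabilize Tfrc mRNA, fell by 0.43 ± 0.056 and 0.41 ± 0.064 in intact females. Fech, the last enzyme of haem synthesis, fell by 0.27 ± 0.051 in ovariectomized and 0.74 ± 0.051 in intact females, and the mitochondrial iron importer gene Slc25a37 by 0.43 ± 0.081 and 0.42 ± 0.081.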

How the data were processed

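Per the labels' protocols, liver RNA (TRIzol, then RNeasy) went into Illumina TruSeq v2 libraries, a kit that does not mark strand, for NextSeq sequencing. The submitters' processing notes name mm9, HTSeq, TopHat2, Trim Galore, DESeq2 and DESeq without versions. The values the authors deposited are log2 values of normalized gene counts, per the labels' description. How the logarithm was taken, and the annotation, are not stated there. If low values were shrunken, fold changes of low genes are understated. Without depth, counting intervals are omitted.

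Where a symbol had more than 1 entry (392 symbols), the entry of highest mean was used. Genes with a mean of at least 4 were fitted with limma 3.58.1 in R 4.3.3, using 4 group means over 12 libraries (8 residual degrees of freedom) and a prior variance that follows the mean. There were 5 comparisons, and 2 averages were added after the others had been seen. Intervals are 95% intervals of the fit. The alternatives changed the filter (none, or a mean of 6), the pseudocount (8), the scaling (recentred or quantile), the variance trend, the libraries in the fit, the replicate block and the handling of repeated entries, and left out each library in turn. The code was tested on simulated data.

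The members, lists and comparisons were chosen with earlier results of these data known. By rule the text names all 10 members, genes among the 4 of each list with the largest changes that passed, and the 5 genes most like Mt1 and Hamp, of which 1 is not reported here. Others under that rule are given as counts, and Mtf1 is named as the remaining tested gene of its list. Shared 50-base words were counted in GENCODE M21 transcripts. Promoters came from RefSeq (Python 3.11.15, aligned with Biopython 1.88).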

Additional observations from a re-analysis of the deposited data

Results flagged for a closer look

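None of the 10 genes had a dexamethasone response that passed the test of a difference between ovariectomized and intact females, but 35 of 82 other genes of the metal-handling lists did (42.7%, against 24.9% of all genes tested). The 21 named here are those among the 4 largest changes that passed in each list, so their sizes were selected (limma, adjusted p under 0.05; values are the response in ovariectomized minus that in intact females, on the log2 scale). The lists were chosen with earlier results of these data known, so nothing is read from the share of 42.7%. The median absolute difference was 0.24 for the 10 genes and 0.22 for all genes, and the SE of the 10 was 0.14 to 0.46.

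Among genes that control hepcidin the differences were 1.8 for Il6ra, -0.97 for Socs3, -0.87 for Atoh8 and -0.67 for Smad7. Il6ra rose by 1.54 with dexamethasone in ovariectomized females and did not pass in intact females (-0.26, adjusted p = 0.169). Smad7 fell by 0.43 in ovariectomized and rose by 0.24 in intact females. Among iron genes they were 1.38 for Lcn2, 1.02 for Ncoa4, 0.89 for Cd163 and 0.89 for Lrp1. The call for Cd163 was lost without intact vehicle replicate 1 or 3, ovariectomized vehicle replicate 2 or 3, or ovariectomized dexamethasone replicate 1 or 2 (adjusted p = 0.0528 to 0.0828).

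Iron regulatory genes differed by 0.56 for Aco1, 0.47 for Fech, 0.36 for Ireb2 and 0.36 for Nfs1. Zinc transporter genes differed by 0.38 for Slc30a5, 0.37 for Slc30a7, 0.397 for Slc39a9, 0.36 for Slc39a11 and 0.28 for Slc39a1. The call for Slc39a1 was lost without intact dexamethasone replicate 1, ovariectomized vehicle replicate 1 or ovariectomized dexamethasone replicate 2 (adjusted p = 0.0514 to 0.0587). Copper genes differed by 0.86 for the copper pump gene Atp7b, 0.36 for the copper importer gene Slc31a1, -0.34 for the copper chaperone gene Atox1 and -0.27 for Commd1. The calls for Slc30a5, Slc31a1 and Slc39a1 were lost under quantile normalization (adjusted p = 0.0757, 0.068 and 0.199).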

How the results depend on the processing

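The number of the 10 genes that passed with dexamethasone in intact females was 7, where 48.8% of all genes passed. It was 4 without the filter on low values (24.2%) and 5 to 8 with a library left out (40.2% to 48.5%). In ovariectomized females it was 4 (40.7%), 4 without the filter (19.5%) and 3 to 6 with a library left out (30.7% to 43.4%). The deposited table holds 24962 entries, and 6294 of them are at 0 in every library. Without the filter such genes cannot pass but are counted in the adjustment of p. A call can thus be lost there with its fold change unchanged. In ovariectomized vehicle against intact vehicle livers the number of the 10 genes was 1, where 27.9% of all genes passed. It was 0 without the filter (11.9%) and 0 to 1 with a library left out (17.1% to 30.8%). Between ovariectomized and intact livers under dexamethasone it was 0 to 1 with a library left out (1.6% to 14.3%). The genes gained there were Hamp without intact vehicle or intact dexamethasone replicate 2, and Slc39a14 without intact dexamethasone replicate 3 (0.52, adjusted p = 0.0359). Hamp, averaged over treatments after ovariectomy, was lost without the filter, giving 0, where 4.94% of all genes passed. Mt1 and Mt2 passed in both dexamethasone comparisons under every alternative. Over all alternatives 49 of 1440 fold changes of the 10 genes changed sign, none of them past the threshold in either fit. Where reported they were the difference between responses for Mt1 (-0.067 under quantile normalization, -0.11 to 0.36 with a library left out) and Hamp (-0.31 to 0.15), and Hamp2 with dexamethasone in ovariectomized females (-0.080 to 0.57) and after ovariectomy under vehicle (-0.060 to 0.59). The cause of these changes was not tested. Most pairs of same-numbered libraries did not deviate together (r from -0.23 to 0.4, over 0.1 in 6 of 18 pairs). The highest r was that of intact with ovariectomized dexamethasone replicate 2, which did deviate together. With the replicate block 7, 4, 1, 0 and 0 of the 10 genes passed in the 5 comparisons, the counts without it. Of all genes 48.1%, 39.8%, 26.6%, 11.8% and 24% passed with the block. Among 97 results for other named genes, 214 of 2016 alternatives lost the call and 0 changed sign. Depth is unknown, so what it limits cannot be given. No fit with only the libraries compared was made for the difference between responses or the averages, which use all 12.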

Other observations

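Copper handling genes, whose metal metallothioneins also bind, fell with dexamethasone where they passed in ovariectomized females (0 of 8 rose and 4 fell) and moved both ways in intact females (2 rose and 2 fell). These 4 of 8 in each state stand beside 40.7% of all genes that passed in ovariectomized and 48.8% in intact females. Atp7b, the copper pump of hepatocytes, fell by 0.5 ± 0.13 in ovariectomized and by 1.36 ± 0.13 in intact females (limma adjusted p = 0.00856 and 1.34e-05). Slc31a1 fell by 0.51 ± 0.055 and Atox1 rose by 0.48 ± 0.065 in intact females. After ovariectomy under vehicle, 4 of the 8 were higher and 2 lower, where 12.4% of all genes were higher and 15.5% lower, among them Atox1 (0.46 ± 0.065), Sod1 (0.35 ± 0.057) and the chaperone gene Ccs (0.32 ± 0.049), all higher.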
